A study of Mus musculus with 16 samples.

Results

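The genes described here encode proteins that carry calcium ions across cellular membranes, or are named as their subunits or regulators. They were chosen by gene symbol: the subunits of voltage-gated calcium channels (symbols starting Cacna, Cacnb or Cacng), the ryanodine receptors Ryr1 to Ryr3, the inositol trisphosphate (IP3) receptors Itpr1 to Itpr3, the Atp2a, Atp2b and Atp2c pumps, the Slc8 sodium-calcium exchangers, the store-operated entry genes Orai1 to Orai3 and Stim1 and Stim2, and the Micu regulators of mitochondrial uptake. The rule took 53 of the 21878 genes in the tables, and no measured value entered it. All 53 passed the filter on low counts. In EAE mice 6 of them were lower than in PBS-treated mice at an adjusted p under 0.05, and none was higher. Over all genes tested 1.76% were lower and 0.66% higher, and 4.5% and 0.329% of those with a mean of at least 1000 counts. The 6 were the pumps Atp2a2, Atp2b2 and Atp2b1, the store calcium sensor Stim2, the channel pore Cacna1i and Cacng8. The last is named as a channel subunit but encodes a protein that carries glutamate receptors to synapses. Their log2FC (log2 fold change, EAE minus PBS) lay between −0.29 and −0.15. Only Atp2a2, Atp2b2 and Stim2 stayed under 0.05 with each of the 16 libraries left out in turn. DESeq2 called 10 of the 53 lower, an exact permutation test only Stim2 and limma none, against 3.37%, 0.302% and 0.212% of all genes. Without 6 libraries that lay close to each other, none of the 53 was called lower in the remaining 10, against 0.0286% of all genes.

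RNA was measured in 8 EAE mice and 8 PBS-treated mice by the study's count, with 1 library per labelled sample, all female wild-type (WT) C57BL/6 animals of 8 weeks. EAE (experimental autoimmune encephalomyelitis), a mouse model of the demyelinating disease multiple sclerosis, was induced with myelin oligodendrocyte glycoprotein peptide (MOG 35-55) in complete Freund's adjuvant and 200 ng of pertussis toxin on days 0, 2 and 7. Control mice received PBS injections, and for them the sources name neither adjuvant nor toxin, so the peptide, the adjuvant and the toxin cannot be told apart. Brains were taken at peak disease and CD11b+/CD45int cells, labelled microglia, were sorted from them. The treatment labels give a last MOG residue that increases by 1 with each replicate number, whereas the protocol gives 35-55 throughout. Libraries are called EAE 1 to EAE 8 and PBS 1 to PBS 8.

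Calcium is kept very low in the cytosol, and cells signal by letting it in for short periods. Voltage-gated channels admit it from outside when the membrane depolarizes. IP3 and ryanodine receptors release it from the endoplasmic reticulum, and an emptied store opens ORAI channels through the sensors STIM1 and STIM2. SERCA pumps (Atp2a) return calcium to the store, whereas plasma membrane pumps (Atp2b) and sodium-calcium exchangers (Slc8) expel it. Neurons carry most of the voltage-gated machinery in the brain, and microglia are known mainly for the store-operated route.

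The windows shown first are the stretches in front of genes that were lower in EAE mice, with the short motif GGGCGG, the GC box that proteins of the Sp family bind, in capitals on either strand. RefSeq promoter windows (GRCm38.p6, the 250 bases before the annotated start) were found for 5 of the 6 genes, with no entry for Atp2a2. The windows of Stim2 at chr5:53998273-53998522 and Cacna1i at chr15:80286988-80287237, both on the plus strand and read 5′ to 3′, are printed because they lie in front of the annotated genes, except for the last bases of the Stim2 window. The windows of Atp2b2, Atp2b1 and Cacng8 lie wholly or mostly inside the GENCODE gene models and are not printed.
Stim2: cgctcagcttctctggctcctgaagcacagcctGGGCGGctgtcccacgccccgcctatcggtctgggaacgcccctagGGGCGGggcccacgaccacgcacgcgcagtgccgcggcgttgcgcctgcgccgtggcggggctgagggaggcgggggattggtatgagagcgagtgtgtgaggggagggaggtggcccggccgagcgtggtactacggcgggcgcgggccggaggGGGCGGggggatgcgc
Cacna1i: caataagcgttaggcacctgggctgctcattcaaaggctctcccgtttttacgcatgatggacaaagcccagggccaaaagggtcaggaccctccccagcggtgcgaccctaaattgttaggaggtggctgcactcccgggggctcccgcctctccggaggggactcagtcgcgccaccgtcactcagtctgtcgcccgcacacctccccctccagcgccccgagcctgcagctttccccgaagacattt
The Stim2 window held 30 CpG dinucleotides and 3 GC boxes, and the Cacna1i window held 16 CpG dinucleotides and no GC box. The median over 32851 promoter windows of the same length was 6 CpG dinucleotides, and 32.7% of them held a GC box. The windows of Atp2b2 and Atp2b1 held 1 and 4 GC boxes and that of Cacng8 held 0. These lie wholly or mostly inside the gene models, so they do not show which motifs lie in front of those genes. None of the 5 windows held TGACGTCA, the cyclic AMP response element found in 1.55% of all windows, CACGTG (6.02%) or TATAAA (12.4%), all searched on both strands.

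Library totals ranged from 24587443 to 30244215 counts in EAE mice against 26031889 to 34184576 in PBS-treated mice. The RNA did not look like that of microglia alone. Summed over 15 microglia markers, FPKM (fragments scaled to transcript length and library size, the length-corrected level deposited by the authors) was 230 to 365 in EAE mice against 213 to 337 in PBS-treated mice. The 12 neuron markers summed to 988 to 1151 and to 1074 to 1189, the 9 astrocyte markers to 1180 to 1797 and to 1371 to 1624, and the 9 oligodendrocyte markers to 939 to 1318 and to 1036 to 1274. No marker of these lists was at 0 in all libraries. The mean FPKM per marker was 82.3 to 99.1 for neuron markers and 14.2 to 24.3 for microglia markers over the 16 libraries. The label of sorted microglia thus goes against these markers, and the values that follow are levels in the RNA of the libraries. In such bulk RNA, fewer cells of a type and less RNA per cell cannot be told apart.

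Some libraries were also closer to each other than the rest of their group. EAE 6, EAE 7 and EAE 8 differed pairwise by 3.12 to 3.6 times the variance expected from counting alone, and PBS 5, PBS 7 and PBS 8 by 3.27 to 4.03 times, whereas all other pairs within a group differed by 6.07 to 24.5 times. These 6 libraries are called linked. The labels do not say why, and whether their material is fully independent was not tested, so n = 8 and the p-values rest on the labels' count of samples. Results on single genes are also given within the linked libraries and within the remaining 10.

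The 3 most abundant mRNAs of the 53 encoded pumps. Mean FPKM over all 16 libraries was 206 for Atp2a2, which encodes the SERCA pump of brain and heart, 133 for Atp2b2, 127 for Atp2b1 and 117 for Itpr1, the IP3 receptor of neurons, and only these 4 of the 53 exceeded 100. Ranked by mean FPKM among the 21878 genes, they were at places 83, 181, 196 and 217. At the other end, 6 genes stayed under 1 FPKM, namely Atp2a1, Cacna1f, Cacna1s, Cacna2d4, Cacng1 and Cacng6, and the other 47 were at 1 or more.

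Most families were led by 1 gene. Atp2a2 supplied 98.5 to 99.3% of the summed SERCA pump FPKM in every library, Atp2c1 94.6 to 98.4% of that of the secretory pathway pumps, which load the Golgi, and Itpr1 92.5 to 94.4% of that of the IP3 receptors. Ryr2 made up 65 to 70.8% of the ryanodine receptor sum, Cacna2d3 49.5 to 57% of the alpha2delta sum and Slc8a2 49 to 58.6% of the exchanger sum. The pore subunits were more evenly spread, since Cacna1a, the P/Q-type channel of presynaptic terminals, gave only 17.9 to 19.8% of their sum. Among the store-operated genes Stim1 led with 31.8 to 34.1%.

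The order within families was stable for most neighbours, and some could not be separated. Atp2b2 was above Atp2b1 in 10 of 16 libraries, with FPKM ratios from 0.894 to 1.15, so the first places among plasma membrane pumps did not differ beyond their spread. Atp2b4 and then Atp2b3 followed in that order in all 16. Among pore subunits Cacna1a was above Cacna1b, the N-type channel, in all 16 libraries, but Cacna1b was above Cacna1e, the R-type channel, in only 11. The T-type subunits Cacna1i and Cacna1h were each the higher one in 8 libraries. In the beta family, whose cytosolic subunits bring pores to the membrane, Cacnb3 led in all 16 and Cacnb4 was above Cacnb2 in 9. Among the gamma genes Cacng8, Cacng7, Cacng3, Cacng4, Cacng2 and Cacng5 kept this order in all 16 libraries. Orai2 was above Stim2 in 11 libraries and above Orai3 and Orai1 in the order of their means.

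**Figure D1:**
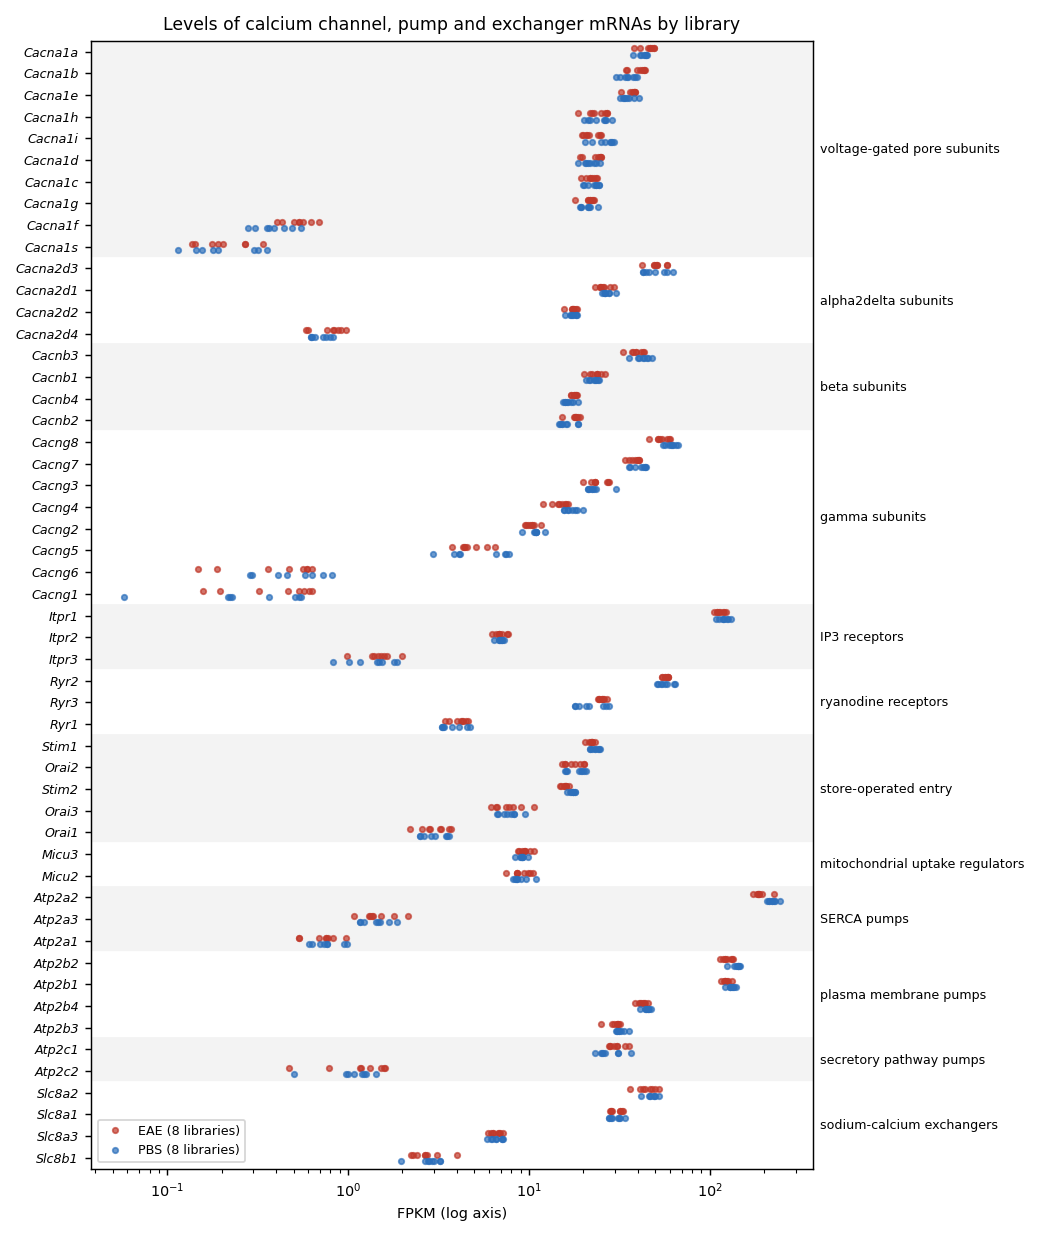
FPKM (log axis) of 52 of the 53 genes in each of the 8 EAE libraries (red points) and the 8 PBS libraries (blue points), grouped by family and ordered by mean level. Atp2a2, Atp2b2, Atp2b1 and Itpr1 lie beyond 100 FPKM, and 6 genes lie under 1 FPKM.

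The comparison of EAE with PBS-treated mice asked which of these genes change at peak disease. With edgeR's quasi-likelihood F test, 6 of the 53 genes (11.3%) were lower in EAE mice at an adjusted p under 0.05, against 1.76% of the 17885 genes tested. None was higher, against 0.66% of all genes tested, and DESeq2 also called none higher, against 1.66% of all genes. At an unadjusted p under 0.05, 16 were lower and 2 higher, against 9.52% and 7.92% of all genes. Lower calls were more frequent among deeply counted genes: of the 6087 genes with a mean of at least 1000 counts, 4.5% were lower and 0.329% higher. Of the 53 genes 38 were that deep, and all 6 called genes were among them. The study also set a limit of 1 on the absolute log2FC for its DEmRNAs, which 0 of the 53 met, against 0.117% of all genes, and the largest absolute log2FC among the 53 was 0.38. In no gene did the FPKM of the groups stay fully apart, against 0.263% of all genes.

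The differences were small across the whole set. The median log2FC (EAE minus PBS) was −0.05 over the 53 genes and 0.01 over all genes tested. The log2FC was below 0 in 37 of the 53 genes with edgeR's scaling, against 47.3% of all genes, in 37 with RLE and 34 with upper-quartile factors, but in 26 with limma on log2(FPKM + 0.1). Among the 38 deeper genes 27 were below 0, against 59.9% of genes of that depth. The median log2FC over the 53 genes and over all genes was −0.05 and 0.01 with RLE factors. It was −0.03 and 0.03 with upper-quartile factors, and 0.00 and 0.05 with limma. The limma fit also differs from edgeR in its test, pseudocount, input values and scaling, which is to library totals only. Each of the 6 called genes was below 0 in all of these fits.

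**Figure D2:**
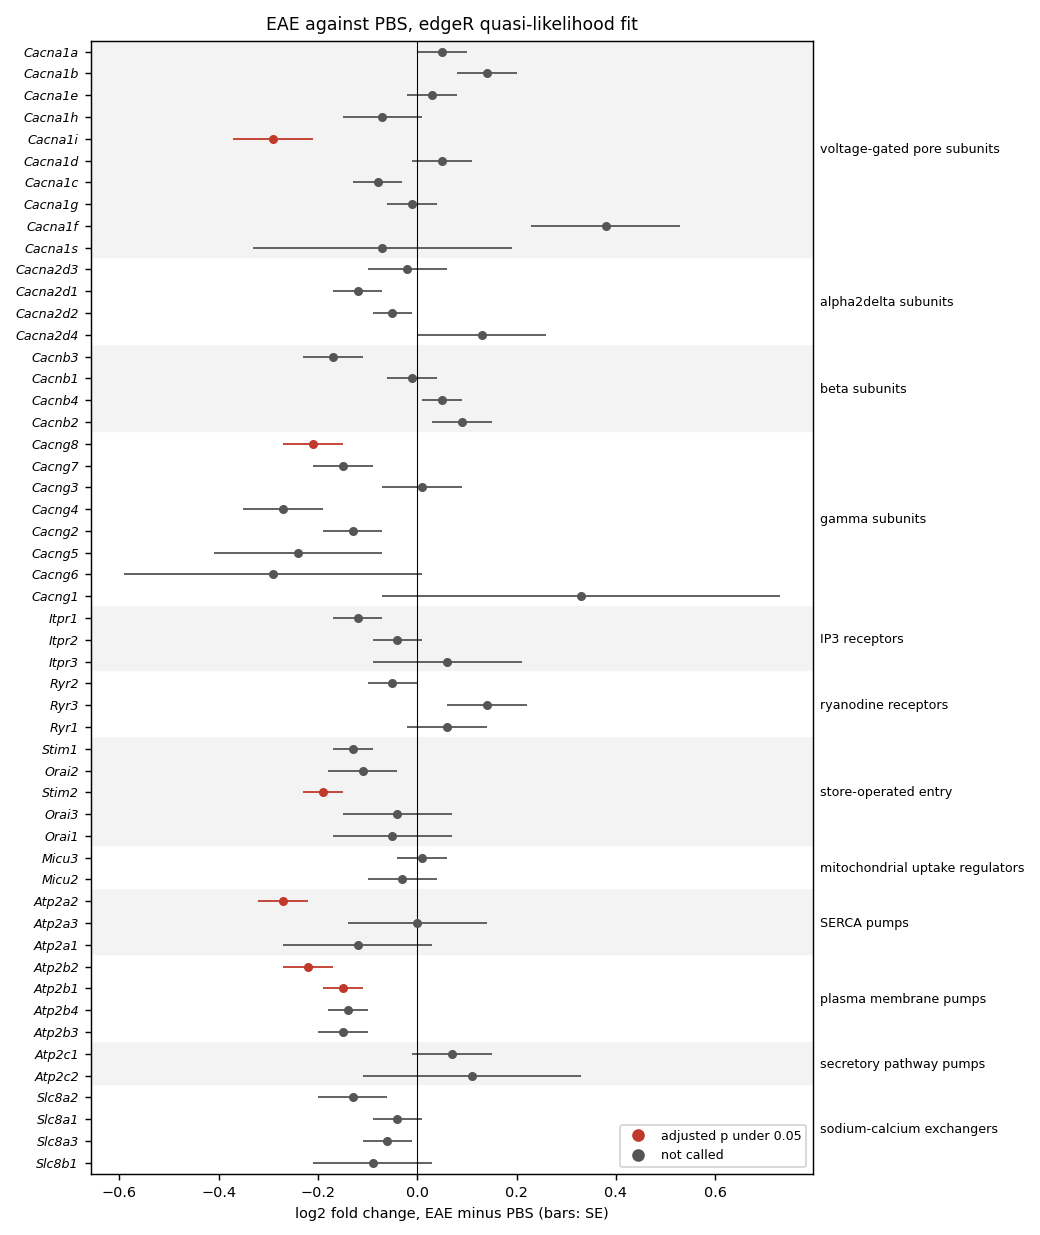
Log2FC (EAE minus PBS, edgeR) of 52 of the 53 genes by family, with bars of 1 SE, and the 6 genes with an adjusted p under 0.05 in red. All 6 lie left of 0, between −0.29 and −0.15.

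Markers of several cell types, some neuron types among them, moved in the direction of the 6 called genes. The 8 markers of GABAergic interneurons summed to 170 to 259 FPKM in EAE mice against 253 to 319 in PBS-treated mice, and 4 of 8 were called lower (Gad1, Slc32a1, Npy and Reln, log2FC −0.53, −0.47, −0.47 and −0.33). The 8 striatal neuron markers summed to 186 to 259 and 261 to 306 FPKM, and 3 of 8 were called lower, Ppp1r1b and Adora2a among them. In each of these 2 lists 7 of 8 markers had a log2FC below 0, with Lhx6 of the GABAergic list at 0.13. Of the 12 general neuron markers 1, Syt1, was lower, and of the 8 excitatory neuron markers none was, with sums of 417 to 497 and 430 to 534 FPKM. The log2FC was below 0 in 9 of the 12 and 5 of the 8. Microglia markers moved the other way for 2 of 15 genes, Trem2 and Itgam, which were higher. Of the 9 astrocyte markers only Gfap was called, as higher, while 7 of the 9 had a log2FC below 0. No oligodendrocyte or oligodendrocyte precursor marker was called, with 7 of 9 and 7 of 7 below 0, against 47.3% of all genes. Of the 9 mural cell markers only Vtn was called, as lower, with 5 below 0. Among the 8 choroid plexus and ependymal markers only Ttr was called, as lower, with 4 below 0. Neutrophil markers summed to 52.1 to 102 and 22.7 to 59 FPKM, with 4 of 9 called higher. Over all genes tested 1.76% were lower and 0.66% higher. The marker lists were chosen with earlier results of these data known, so these counts are descriptions. No marker of these lists was at 0 in all libraries, and their part in the lower pump, Stim2 and channel values was not tested.

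The pumps that clear calcium from the cytosol held 3 of the 6 calls. Atp2a2 (chr5:122453513-122502225, minus strand, GRCm38), whose product refills the endoplasmic reticulum, was at 174, 186 and 226 FPKM in EAE mice (lowest, median and highest) against 207, 220 and 244 in PBS-treated mice. In 7 of 8 EAE libraries it was below the lowest PBS library, and EAE 4 stood alone at 226 within the PBS range. The means were 190 ± 15.5 and 222 ± 11.6 FPKM (SD, n = 8 each), and the log2FC was −0.27 (SE 0.05, adjusted p = 0.0082), a difference of −17.1%. The other SERCA genes were low, at mean FPKM of 1.46 for Atp2a3 and 0.749 for Atp2a1, with log2FC of −0.00 and −0.12, and neither was called.

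Atp2b2 (chr6:113743831-114042613, minus strand), a fast plasma membrane pump of neurons, was at 114, 123 and 134 FPKM in EAE mice against 124, 143 and 147 in PBS-treated mice. In 7 of 8 PBS libraries it was above the highest EAE library, and PBS 6 stood apart at 124. The log2FC was −0.22 (SE 0.05, adjusted p = 0.0163). Atp2b1 (chr10:98914406-99026143, plus strand), the housekeeping pump of this family, was at 115, 122 and 132 FPKM against 121, 131 and 140. The ranges overlapped more, with 3 EAE libraries below the lowest PBS library, and the log2FC was −0.15 (SE 0.04, adjusted p = 0.0491). Atp2b4 (log2FC −0.14, adjusted p = 0.0845) and Atp2b3 (log2FC −0.15, adjusted p = 0.102) had values on the same side of 0 and did not pass the test. All 4 plasma membrane pumps had a log2FC below 0 with every scaling tried. Summed over the family, FPKM was 320 ± 12.3 in EAE mice against 349 ± 10.6 in PBS-treated mice (SD, n = 8 each).

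Stim2 (chr5:53998499-54121057, plus strand), the store sensor that responds to small losses of luminal calcium, was at 14.9, 15.8 and 16.7 FPKM in EAE mice against 16.3, 17.5 and 18 in PBS-treated mice. The groups were nearly apart: 7 EAE libraries lay below the lowest PBS library and 7 PBS libraries above the highest EAE library. The log2FC was −0.19 (SE 0.04, adjusted p = 0.0169). Its paralog Stim1, the main trigger of store-operated entry, had a log2FC of −0.13 (adjusted p = 0.122). The channel genes Orai1, Orai2 and Orai3 had log2FC of −0.05, −0.11 and −0.04 and none passed. On the FPKM scale 4 of these 5 genes, and on the edgeR scale all 5, were below 0.

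The genes named as voltage-gated channel subunits held the other 2 calls. Cacna1i (chr15:80287238-80398279, plus strand), a low-threshold T-type pore best known from thalamic neurons, was at 19.6, 21.3 and 25.1 FPKM in EAE mice against 20.4, 27.4 and 29.7 in PBS-treated mice. The ranges overlapped, with 5 PBS libraries above the highest EAE library, and the log2FC was −0.29 (SE 0.08, adjusted p = 0.0423). The other T-type genes did not pass, with log2FC of −0.01 for Cacna1g and −0.07 for Cacna1h. The L-type genes of brain, Cacna1c and Cacna1d, had log2FC of −0.08 and 0.05, and Cacna1a and Cacna1e had 0.05 and 0.03. Cacna1b had the highest log2FC of the abundant pore genes, 0.14, at an adjusted p of 0.23. Cacna1f, a retinal L-type pore, had a log2FC of 0.38 (adjusted p = 0.197) at levels of 0.406 to 0.694 FPKM in EAE mice against 0.28 to 0.548 in PBS-treated mice. The muscle pore Cacna1s, under 1 FPKM as well, had a log2FC of −0.07 (SE 0.26).

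Cacng8 (chr7:3390683-3415648, plus strand) was at 46.4, 54 and 60.4 FPKM in EAE mice against 55.3, 61.4 and 66.6 in PBS-treated mice. In 5 EAE libraries it was below the lowest PBS library, and the log2FC was −0.21 (SE 0.06, adjusted p = 0.0489). Although named as calcium channel gamma subunits, Cacng2, Cacng3, Cacng4 and Cacng8 encode TARPs, which carry AMPA-type glutamate receptors to synapses. Cacng4 had a log2FC of −0.27 (adjusted p = 0.058), Cacng2 −0.13 (adjusted p = 0.228), Cacng7 −0.15 (adjusted p = 0.185) and Cacng3 0.01. Cacng5, Cacng6 and Cacng1 had −0.24 (SE 0.17), −0.29 (SE 0.30) and 0.33 (SE 0.40). Summed over the 8 gamma genes, FPKM was 148 ± 6.3 in EAE mice against 160 ± 7.34 in PBS-treated mice (SD, n = 8 each). Of these 8 genes 6 had a log2FC below 0 with every scaling tried.

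**Figure D3:**
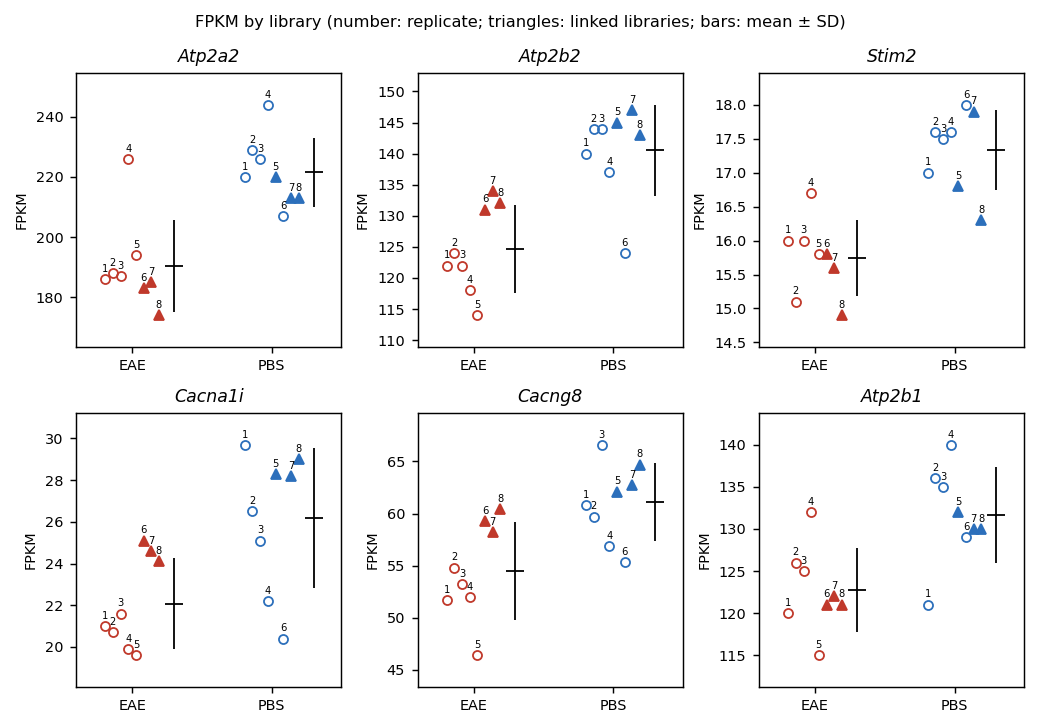
FPKM of the 6 called genes in each library, numbered by replicate, with triangles for the 6 linked libraries, open circles for the others and mean ± SD (n = 8) beside each group. The axes do not start at 0. EAE 4 at 226 FPKM for Atp2a2 and PBS 6 at 124 FPKM for Atp2b2 stand apart from their groups.

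The auxiliary alpha2delta and beta genes held no call. The alpha2delta genes, which set how many pores reach the surface and include the gabapentin targets Cacna2d1 and Cacna2d2, had log2FC of −0.12, −0.05, −0.02 and 0.13 for Cacna2d1, Cacna2d2, Cacna2d3 and Cacna2d4. Of the beta genes, Cacnb3 had a log2FC of −0.17 (adjusted p = 0.161), and Cacnb1, Cacnb2 and Cacnb4 had −0.01, 0.09 and 0.05. Summed beta FPKM was 98.3 ± 4.75 in EAE mice against 98.3 ± 3.5 in PBS-treated mice, and summed alpha2delta FPKM was 95.4 ± 6.43 and 95.5 ± 9.12 (SD, n = 8 each).

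Release channels of the store did not pass the test. Itpr1 was at 106, 114 and 123 FPKM in EAE mice against 109, 119 and 131 in PBS-treated mice, and its log2FC was −0.12 (adjusted p = 0.185), and Itpr2 and Itpr3 had −0.04 and 0.06. Ryr2, the ryanodine receptor of heart and brain, was at 54.6, 57.1 and 58.7 FPKM against 51, 55.7 and 64.5, with a log2FC of −0.05, and Ryr1 and Ryr3 had 0.06 and 0.14. The exchangers Slc8a1, Slc8a2, Slc8a3 and the mitochondrial Slc8b1 had log2FC of −0.04, −0.13, −0.06 and −0.09, the secretory pathway pumps Atp2c1 and Atp2c2 0.07 and 0.11. The mitochondrial uptake regulators Micu2 and Micu3 had log2FC of −0.03 and 0.01.

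Not all 6 calls held when single libraries were left out. Atp2a2, Atp2b2 and Stim2 stayed under 0.05 in all 16 leave-one-out fits, with the highest adjusted p at 0.022, 0.0429 and 0.0477. Cacna1i and Cacng8 were called in 6 of 16 and Atp2b1 in 4 of 16. Other edgeR settings also ended these 3 calls: Cacng8 had adjusted p of 0.0511 with RLE factors, 0.0766 with upper-quartile factors, 0.0518 without a count filter and 0.0531 with filterByExpr. Atp2b1 had 0.0868 with upper-quartile factors, 0.064 without a count filter and 0.057 in a robust fit, and Cacna1i 0.0644 with upper-quartile factors. Without EAE 4, 9 of the 53 genes were called lower, Cacng4 and Atp2b4 beside the 6 among them, against 4.57% of all genes in that fit. In an exact permutation test over all 12870 divisions of the 16 libraries, Stim2 was the 1 gene of the 53 called (p = 0.000155, the smallest these divisions can give, two-sided, adjusted p = 0.0421), and Atp2a2 and Atp2b2 had adjusted p of 0.0602. It called 0.302% of all genes lower and 0.0671% higher. DESeq2 called 10 of the 53 lower, against 3.37% of all genes, and limma on FPKM called none in either direction, against 0.212% of all genes lower and 0.615% higher. At an unadjusted p under 0.05 limma had 8 of the 53 lower and 5 higher, against 4.6% and 13.7% of all genes.

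**Figure D4:**
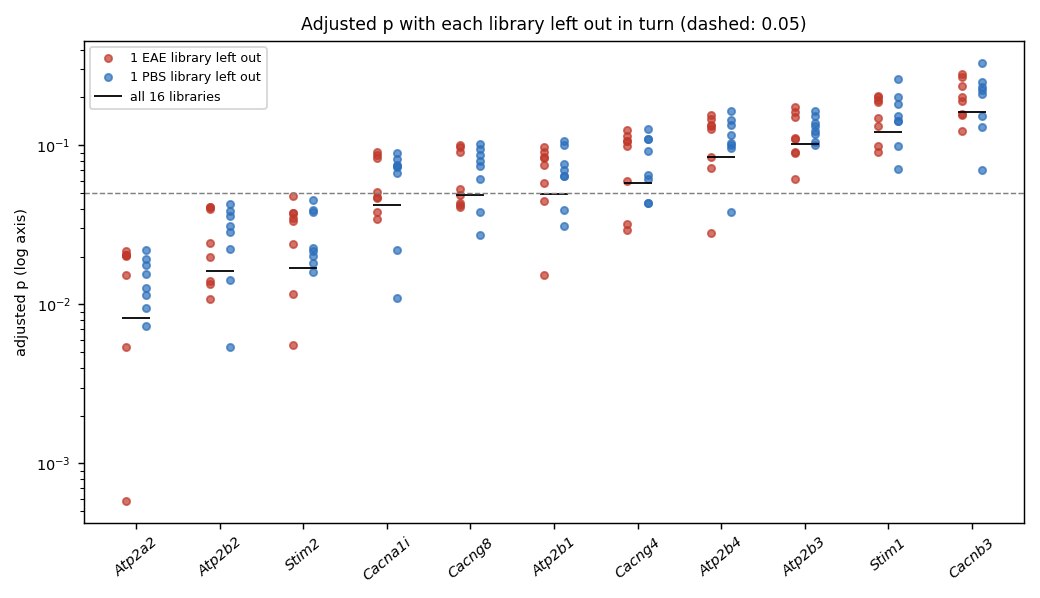
Adjusted p (log axis) of 11 of the 12 genes with the smallest p-values when each EAE library (red) or each PBS library (blue) was left out, with black bars for the fit on all 16 libraries and a dashed line at 0.05. Atp2a2, Atp2b2 and Stim2 stay under the line in all 16 fits.

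The 6 called genes had the same sign in both library sets. Within the 6 linked libraries the log2FC was −0.28 for Atp2a2, −0.16 for Atp2b2, −0.17 for Stim2, −0.24 for Cacna1i, −0.12 for Cacng8 and −0.14 for Atp2b1. Within the remaining 10 libraries it was −0.27, −0.27, −0.21, −0.34, −0.28 and −0.16 in the same order. In the linked libraries all 6 genes had every EAE library below every PBS library, as did 16% of all genes there. In the remaining libraries this was so for Atp2b2, Cacng8 and Stim2, against 0.464% of all genes, with the Atp2b2 groups equal to the digits shown. The reverse, every EAE library above every PBS library, held for 14 of the 53 genes in the linked libraries (22% of all genes) and for Micu3 in the others (1.62%). These values come from the libraries that made the calls, so they describe the calls and do not add to them.

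The sets differed in how many genes passed. Within the linked libraries 17 of the 53 genes were lower and 10 higher at an adjusted p under 0.05, against 13.1% and 11% of all genes. Within the remaining 10 none was called in either direction, against 0.0286% and 0.0458% of all genes. At an unadjusted p under 0.05, 16 were lower there and 0 higher, against 6.71% and 4.12% of all genes. Several genes were higher in EAE mice in the linked libraries, among them Cacna1b (log2FC 0.33), Ryr3 (0.36), Ryr1 (0.26), Cacnb2 (0.21) and Cacna2d3 (0.18). In the remaining libraries their log2FC were 0.02, 0.02, −0.05, 0.02 and −0.14.

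Cacng5, one of the gamma genes, showed the widest gap. In the linked libraries it was at 4.33 to 4.56 FPKM in EAE mice against 7.41 to 7.74 in PBS-treated mice (log2FC −0.80). In the others it was at 3.76 to 6.52 and 2.95 to 6.58 FPKM (log2FC 0.18). The difference of these log2FC was −0.98 (SE 0.25, adjusted p = 0.205 in edgeR's fit across all genes). By this test of the difference between sets, 0 of the 53 genes passed, against 0.0615% of all genes, and 10 had an unadjusted p under 0.05, against 8.03% of all genes. Across the 53 genes the correlation of the log2FC in the linked and remaining libraries was 0.11 and 31 of 53 (58.5%) shared their sign, while among the 6087 deeper genes these were 0.43 and 67.7%. Genes within a library share its depth and composition, so these are descriptions.

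**Figure D5:**
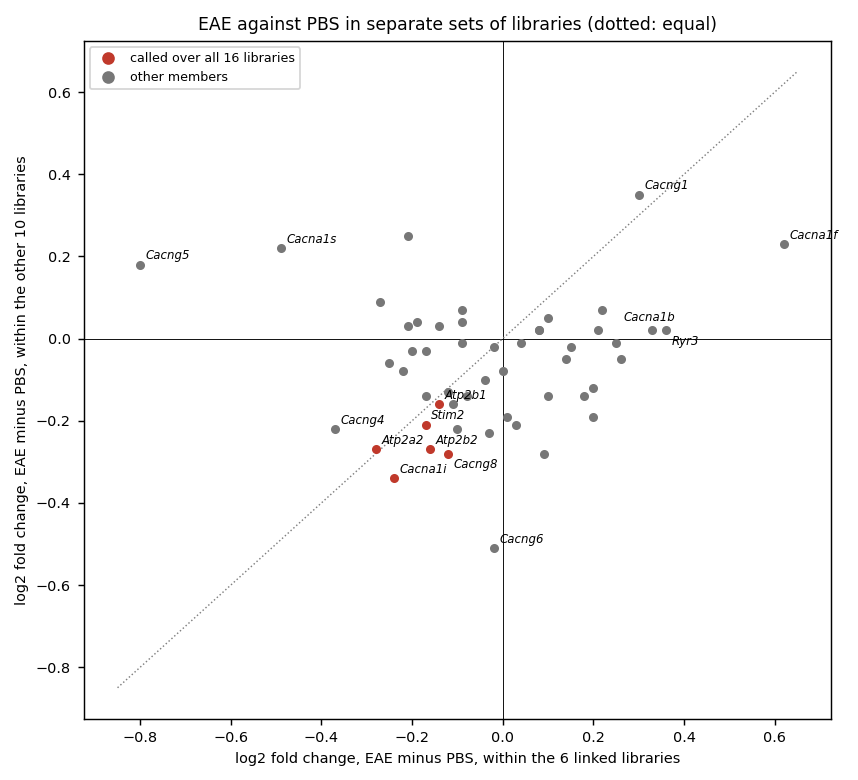
Log2FC (EAE minus PBS) of 52 of the 53 genes within the 6 linked libraries (horizontal axis) and within the remaining 10 libraries (vertical axis), with the 6 genes called over all libraries in red and a dotted line where both are equal. The 6 red points lie below 0 on both axes, and Cacng5 lies at −0.80 and 0.18.

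Genes of other parts of calcium handling were taken from 9 lists of 131 genes, of which 127 were tested. At an adjusted p under 0.05, 4 (3.15%) were lower in EAE mice and 2 (1.57%) higher, against 1.76% and 0.66% of all genes tested, and 4.5% and 0.329% of the deeper genes. Of the 127 genes 76 (59.8%) had a log2FC below 0, against 47.3% of all genes and 59.9% of the deeper genes. The lower genes were Slc24a3, a potassium-dependent exchanger (30.5 ± 1.56 against 34.4 ± 1.35 FPKM, SD, n = 8 each, log2FC −0.23, adjusted p = 0.00898), Letm1, a mitochondrial inner membrane protein (log2FC −0.22, adjusted p = 0.0187), Canx, a calcium-binding chaperone of the endoplasmic reticulum (log2FC −0.24, adjusted p = 0.0249), and Rcan2, a calcineurin regulator (log2FC −0.20, adjusted p = 0.0265). The other luminal chaperone gene Calr had a log2FC of −0.26 at an adjusted p of 0.0507. The higher genes were at low levels: P2ry6, a nucleotide receptor of microglia, was at 3 ± 0.478 against 2 ± 0.34 FPKM (log2FC 0.53, adjusted p = 0.0277), and Slc24a1 at 1.23 ± 0.306 against 0.792 ± 0.12 FPKM (log2FC 0.59, adjusted p = 0.0361; SD, n = 8 each).

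The remaining list genes were not called. This held for 11 tested voltage-gated channel partners, 11 store-operated entry regulators and TRPC channels, 18 calcium buffers and sensors and 18 genes of IP3 production and turnover. The median log2FC of these lists was 0.06, −0.04, −0.08 and −0.01. The list closest to microglia held 10 calcium-permeable and purinergic receptors, the called P2ry6 among them. It had no gene below 0, against 47.3% of all genes, and a median log2FC of 0.13.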

How the data were processed

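Ribosome-depleted, stranded libraries (TruSeq, Ribo-Zero Gold) were sequenced from 8 EAE and 8 PBS-treated mice. Per the submitters' processing notes and the methods, the authors used bcl2fastq, HISAT2 2.1.0 and HTSeq 0.11.2 with GRCm38, and name DESeq2 1.22.2 and edgeR for testing. The strand setting of the counting is not given in the sources used here. The authors deposited raw counts per gene and FPKM per gene. Counts, library totals and FPKM fitted together with 1 length per gene (largest relative spread 1.15e-09 over 7749 genes), so FPKM was scaled to the library total only. No column of per-sample values was left unused, and lncRNA and circRNA data were not used here.

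The groups were compared on counts with edgeR 4.0.16 in R 4.3.3 (TMM factors, quasi-likelihood F test, two-sided, no covariates) over 17885 genes with a total of at least 16 counts, with Benjamini-Hochberg adjustment over all of them. The mean TMM factor was 1.02 for EAE libraries against 0.983 for PBS libraries. Counts are divided by these factors, so TMM moved the log2FC (EAE minus PBS) down by 0.05 relative to library totals. In simulated data for this comparison the fit recovered 74% of 200 genes changed by 0.5 on the log2 scale (17784 genes in that run), with 2.63% of calls on unchanged genes. The simulation held no change as small as those of the called genes. It also drew all libraries independently, without linked sets, so these rates do not carry over to the calls reported here. Levels are FPKM as deposited. Alternatives were RLE and upper-quartile factors, no count filter, filterByExpr, a robust fit, DESeq2 1.42.0, limma 3.58.1 on log2(FPKM + 0.1), an exact permutation test, a replicate block, library sets and leaving out each library. Linked libraries were pairs with a noise ratio under 5 over genes with a mean above 50 counts. Depth limits mainly the 6 genes under 1 FPKM.

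The genes were named by family, and 1 of the 53 and 1 marker are counted but not reported by name here. Full values were given for called genes, filled to the 12 smallest p-values, for the highest gene of each family, and for at most 3 genes per pathway list. Genes and lists were chosen with earlier results of these data known. Each library is 1 labelled sample, and p-values measure the spread between these samples. Gene positions are from GENCODE vM21. Of the 53 genes 10 overlapped a protein-coding gene and 16 overlapped no gene.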

Additional observations from a re-analysis of the deposited data

Results flagged for a closer look

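In 10 of 106 groups of 8 FPKM values (53 genes in EAE and in PBS-treated mice), the highest or lowest library was farther from its neighbour than Dixon's test at the 95% level allows. Chance alone flags about 1 in 20 groups. EAE 4 was the highest of its group for Atp2a2, at 226 FPKM with the next library at 194, and the lowest for Cacna1g, at 18.1 FPKM with the next at 21.2, and for Cacnb2, at 15.3 FPKM with the next at 17.8. EAE 5 was the lowest for Atp2b3 at 25 FPKM (next 28.7), for Cacna1e at 32.4 FPKM (next 36.1) and for Cacna2d2 at 15.6 FPKM (next 17.3). PBS 4 was the highest for Cacna2d1 at 30.3 FPKM (next 27.7) and for Cacng3 at 30.4 FPKM (next 23.5). PBS 6 was the lowest for Atp2b2 at 124 FPKM (next 137), and PBS 1 the lowest for Slc8b1 at 1.96 FPKM (next 2.68). Thus 8 of the 10 values came from EAE 4, EAE 5 and PBS 4.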

How the results depend on the processing

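The number of the 53 genes called lower was 6, and it was 3 with upper-quartile factors, 10 with DESeq2, 0 with limma on FPKM, 1 with the exact permutation test, 17 within the linked libraries (with 10 higher) and 0 within the remaining 10, while RLE factors, no count filter, filterByExpr and the robust fit gave 4 to 5, a library set term 8 and leaving out EAE 4 and PBS 4 together, chosen after seeing the data, 9. Leaving out each library in turn gave 3 to 9 lower (9 without EAE 4, 8 without PBS 6, and 3 without any 1 of EAE 1, EAE 2, EAE 3, PBS 2, PBS 3, PBS 5, PBS 7 and PBS 8), 0 higher and 0 DEmRNAs. Over all genes tested, 315 lower and 118 higher genes became 187 and 131 with upper-quartile factors, 602 and 297 with DESeq2, 38 and 110 with limma, 54 and 12 with the permutation test, 526 and 242 with a library set term, 2251 and 1896 within the linked libraries, 5 and 8 within the remaining 10, and 810 and 496 without EAE 4 and PBS 4. Leaving out each library gave 104 (without PBS 2) to 815 (without EAE 4) lower and 39 (without EAE 2) to 502 (without EAE 4) higher. The 6 called pathway genes became 1 with limma, 1 with the permutation test, 37 in the linked libraries, 0 in the remaining 10 and 10 without EAE 4 and PBS 4, and 1 (without EAE 2 or PBS 2) to 11 (without EAE 4) with a library left out. The cause of these changes was not tested.

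Of the 53 genes, 10 had another sign than over all libraries within the linked set and 12 within the remaining 10. Of the 23 genes followed through all alternatives (called, among the 12 smallest p-values, highest of a family, or with an unadjusted p under 0.05), the sign turned for Cacna1a (−0.02 in the remaining 10 libraries), Itpr1 (0.03 in the linked libraries), Ryr2 (0.01 with limma, 0.10 in the linked libraries), Slc8a2 (0.09 in the linked libraries) and Cacna2d3 (0.03 with limma, 0.18 in the linked libraries, 0.00 without EAE 4 and PBS 4, and −0.06 without PBS 5 to 0.03 without PBS 4 over single libraries left out, with 0.01 without EAE 1 and 0.00 without PBS 1), none of which was called over all libraries. The replicate numbers did not pair the libraries throughout. Deviations of same-numbered libraries correlated at 0.602 for number 4, 0.319 for number 8 and −0.247 to 0.211 for the other numbers. Of the EAE libraries, 2 correlated best with the PBS library of their own number. With the replicate block 5 of the 53 genes were lower (Cacng8 and Atp2b1 had adjusted p of 0.0529 and 0.0628) and 367 and 150 of all genes lower and higher.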

Other observations

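Genes of the set that are known from skeletal muscle were detected at low levels. Atp2a1, the SERCA pump of fast muscle, was at 0.73 ± 0.145 FPKM in EAE mice against 0.768 ± 0.136 in PBS-treated mice, and Cacna1s, the voltage sensor of muscle, at 0.217 ± 0.0708 and 0.22 ± 0.0909 (SD, n = 8 each). Ryr1, the muscle release channel that brain also uses, was at a higher level than these, at 4.12 ± 0.405 and 3.82 ± 0.581 FPKM. Cacng1 rested on 2 to 21 counts per library. The 10 striated muscle markers summed to 5.91 to 8.79 FPKM in EAE mice against 5.25 to 7.94 in PBS-treated mice, and none was called. None of these calcium genes was called either, with unadjusted p of 0.427 for Atp2a1, 0.779 for Cacna1s, 0.438 for Ryr1 and 0.419 for Cacng1 in edgeR's fit.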
